A study of Mus musculus with 8 samples.

Results

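The synaptonemal complex genes described here are Sycp1, Sycp2, Sycp3, Syce1, Syce2 and Tex12, chosen by matching their gene symbols. They are 6 of the 23235 symbols with a value, and all 6 were among the 15899 genes tested, which had an FPKM (fragments scaled by transcript length and by mapped reads) above 1 in at least 1 library. RNA-seq was carried out on male spermatocytes of C57BL/6 mice at an age of 6 weeks, sorted by flow cytometry with Hoechst and propidium iodide into an LZ fraction (leptotene and zygotene) and a PD fraction (pachytene and diplotene). Cnot4-null cells came from Cnot4 fl/fl;Stra8-Cre males, in which exon 2 of Cnot4 is removed in germ cells by a Cre that the Stra8 promoter drives, and which lose a subunit of the CCR4-NOT complex, the main remover of mRNA poly(A) tails. WT males were the controls, and whether they carried the floxed allele or the Cre is not given in the sources used here. There were 2 libraries in each of the 4 groups (WT LZ, WT PD, Cnot4-null LZ and Cnot4-null PD). They were described as biological replicates, with nothing said about which mice each came from. The comparisons ask how transcript levels differ between the LZ and PD stages in each genotype, and between the genotypes at each stage.

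The synaptonemal complex is the protein zipper that holds paired homologous chromosomes together in meiotic prophase. Its lateral elements, built on the chromosome axes from SYCP2 and SYCP3, are joined by transverse filaments of SYCP1, whose N-termini meet in a central element that holds SYCE1, SYCE2 and TEX12. The complex is assembled in zygotene, is complete along paired chromosomes in pachytene and comes apart in diplotene, and male mice that lack one of these proteins are sterile.

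Cnot4 itself measured 36.0 and 34.9 FPKM in WT LZ and 76.6 and 73.1 FPKM in WT PD. In the Cnot4-null libraries it measured 43.2 and 34.6 FPKM at LZ and 65.9 and 53.5 FPKM at PD. The Cnot4-null values overlapped those of WT at LZ and lay below them at PD, and a value per gene does not test the removal of 1 exon. Low values in the files differ by steps of whole fragments, and by these steps the libraries had 0.823 (Cnot4-null PD replicate 2) to 1.33 (WT PD replicate 2) times the depth of WT LZ replicate 1. This estimate is uncertain, because the read totals given by the study put the libraries in another order. The study labels both of its Cnot4-null PD totals as replicate 1. The second of them, taken here from its place as replicate 2, is among the deepest. The duplicates had a Spearman correlation over the genes tested of 0.941 in WT LZ, 0.968 in WT PD, 0.947 in Cnot4-null LZ and 0.892 in Cnot4-null PD.

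The stage labels were checked against marker genes. The summed FPKM of 7 late prophase markers was 202 and 306 in WT LZ, 11970 and 11040 in WT PD, 199 and 71.8 in Cnot4-null LZ, and 5506 and 1880 in Cnot4-null PD, with Ldhc the most abundant. The PD libraries of both genotypes were above all LZ libraries. By limma 0 of the 7 were higher and 1 lower in Cnot4-null PD than in WT PD, beside 41.6% and 11.5% of all genes. Dmc1, an early prophase recombinase, measured 75.8 and 91.5 FPKM in WT LZ against 1.16 and 0.590 in WT PD. Its Cnot4-null values were 132 and 81.8 FPKM at LZ and 8.58 and 9.22 at PD. The sum of the 6 early prophase markers did not separate the stages in WT (285 and 368 FPKM at LZ, 338 and 379 at PD). The FPKM of Hormad1, the most abundant of them, and of Spo11 lay higher in both WT PD libraries than in both WT LZ libraries. The sum was 539 and 310 FPKM in Cnot4-null LZ and 185 and 122 FPKM in Cnot4-null PD. By limma 2 of the 6 were higher and 2 lower in Cnot4-null PD than in WT PD, beside the same shares of all genes.

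Marker sums of most other cells stood higher in Cnot4-null PD than in WT PD. Of all genes tested, 41.6% were called higher and 11.5% lower in that comparison by limma. The 5 Leydig cell markers summed to 10020 and 22200 FPKM there, against 115 and 7.07 in WT PD and 9.88 to 19.0 in the LZ libraries, nearly all of it Insl3 (9669 and 21610 FPKM in Cnot4-null PD), and 5 of 5 passed the limma test as higher than in WT PD. The 6 spermatid markers summed to 15800 and 7123 FPKM in Cnot4-null PD, 417 and 260 in WT PD, 1832 and 1514 in WT LZ, and 4033 and 708 in Cnot4-null LZ, led by Prm1, and 6 of 6 were higher in Cnot4-null PD than in WT PD. Of the 8 spermatogonial markers, 7 were higher and 1 was lower in Cnot4-null PD than in WT PD. Their sum was 620 and 594 FPKM in Cnot4-null PD, 429 and 423 in WT PD, 846 and 789 in WT LZ, and 559 and 770 in Cnot4-null LZ. Most of the WT PD sum was Dmrtb1, at 410 and 410 FPKM, against 296 and 148 in Cnot4-null PD. Uchl1 measured 202 and 232 FPKM in Cnot4-null PD, 10.9 and 6.22 in WT PD, 411 and 422 in WT LZ, and 250 and 355 in Cnot4-null LZ. Its Cnot4-null PD values thus lay between those of WT PD and of the LZ libraries.

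Sertoli cell markers summed to 98.4 and 200 FPKM in Cnot4-null PD, 8.84 and 16.6 in WT PD, 66.0 and 59.0 in WT LZ, and 6.59 and 10.8 in Cnot4-null LZ. Most of the Cnot4-null PD sum was Clu. Of the 5 tested, 2 were higher in Cnot4-null PD than in WT PD, which is near the 41.6% of all genes called higher. Amh was listed at 0 in every library but Cnot4-null PD replicate 2, at 0.129 FPKM. Macrophage markers, led by Lyz2, summed to 17.2 and 84.9 FPKM in Cnot4-null PD against 1.71 and 1.46 in WT PD. Of these, 3 of 5 were called higher, beside 41.6% of all genes. In the LZ libraries they summed to 24.8 and 0.915 FPKM in WT and 5.93 and 1.65 in Cnot4-null, and C1qa had a value of 0 in both libraries of WT PD. Peritubular and endothelial markers, led by Acta2, summed to 46.5 and 228 FPKM in Cnot4-null PD against 1.25 and 1.08 in WT PD, with 3 of the 3 tested higher, and to at most 0.595 in the LZ libraries. Both red blood cell markers were listed at 0 in all 8 libraries. Every comparison below that uses the Cnot4-null PD libraries was made with these markers present. Marker sums also lay apart in the other comparisons. Spermatid markers summed to 1832 and 1514 FPKM in WT LZ against 417 and 260 in WT PD, and spermatogonial markers to 846 and 789 against 429 and 423. Sertoli cell markers summed to 66.0 and 59.0 FPKM in WT LZ against 6.59 and 10.8 in Cnot4-null LZ. The part of such markers in the results below was not tested in any comparison. In sorted bulk cells, fewer cells of a type and less RNA per cell cannot be told apart.

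**Figure D1:**
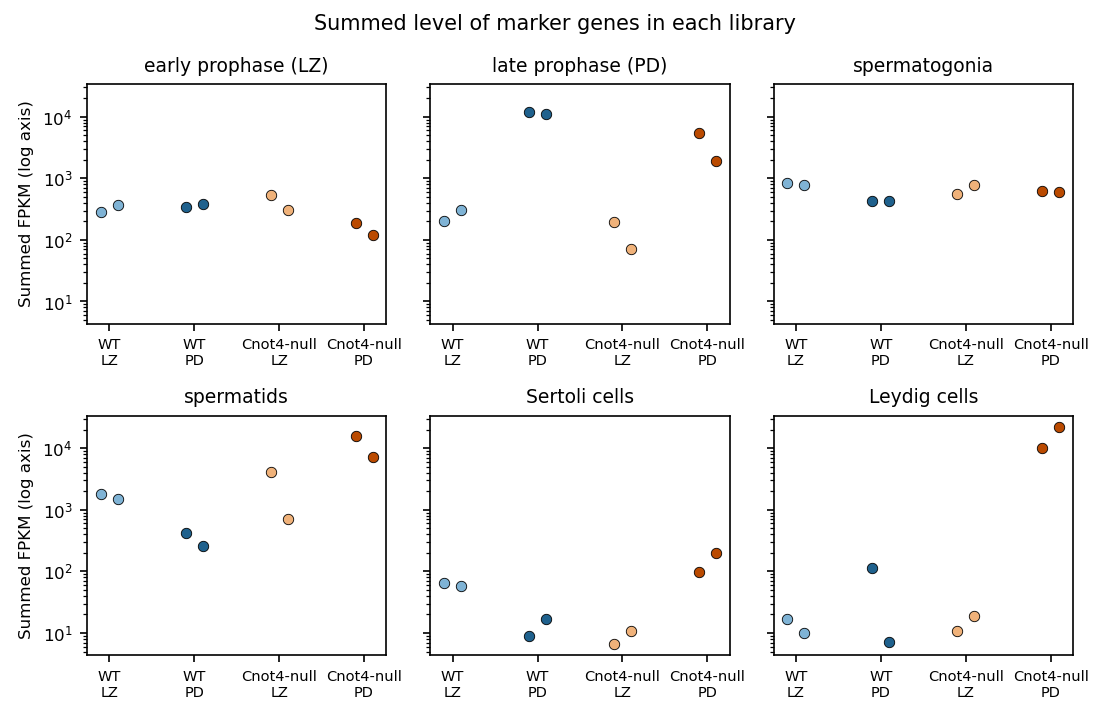
Summed FPKM (log axis) of the marker genes of 6 cell types in each of the 8 libraries, with 1 point per library. Leydig and spermatid markers were highest in the Cnot4-null PD libraries, and late prophase markers were highest in WT PD.

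In WT, the genes of the complex did not move as a block between LZ and PD: Syce2, Sycp1 and Tex12 fell, Syce1 rose, and Sycp2 and Sycp3 did not pass the test. In Cnot4-null cells Syce2, Sycp1, Tex12 and Sycp3 fell and none rose. At LZ no difference between the genotypes passed the test for any of the 6, and 15 of all 15899 genes tested passed it. At PD, Syce2 was higher in Cnot4-null than in WT and Syce1, Sycp3 and Sycp2 were lower. All of these calls are at an adjusted p under 0.05 in limma, on log2(FPKM + 1), and those that other settings change are named below.

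**Figure D2:**
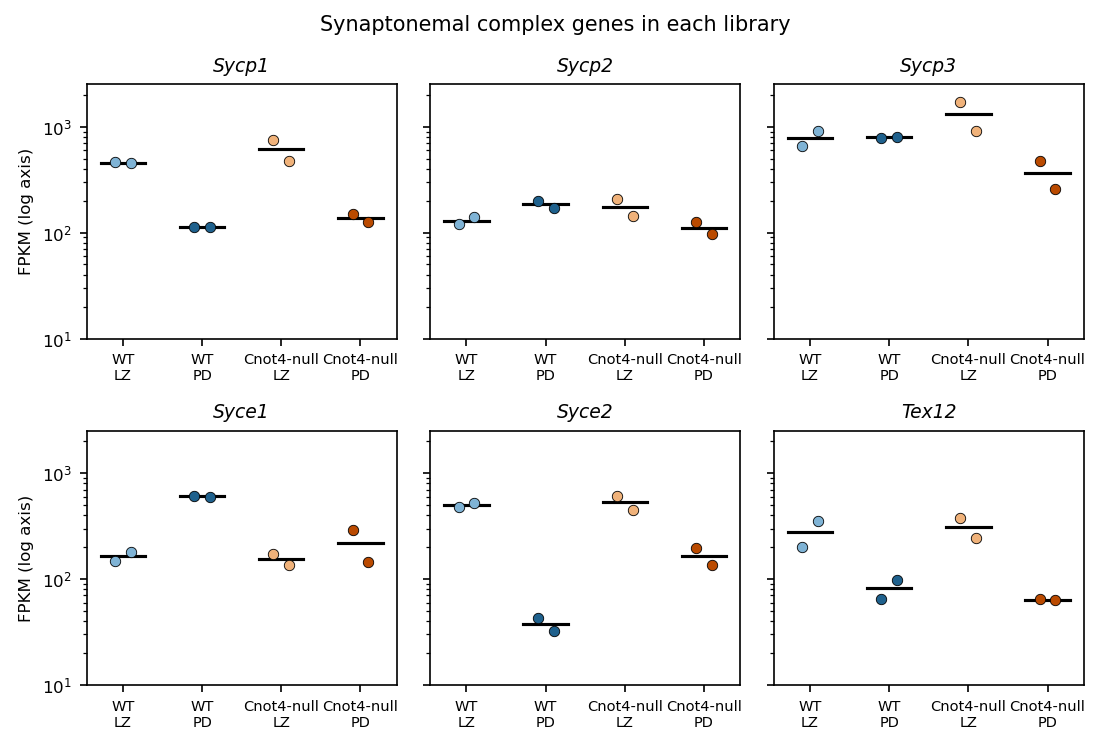
FPKM (log axis) of the 6 genes in each library, with 1 point per library and a line at the mean of the 2 libraries of a group. Syce1 was highest in WT PD, at 604 and 601 FPKM, where Syce2 was lowest, at 43.1 and 32.1 FPKM.

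Of the lateral element genes, Sycp3 (chr10:87922314-87935981, plus strand, mm9), which encodes the main structural protein of the axis, was the most abundant of the 6 per unit length in every group mean. It measured 650 and 906 FPKM in WT LZ and 785 and 799 FPKM in WT PD. In Cnot4-null it measured 1725 and 907 FPKM at LZ and 473 and 260 FPKM at PD. The values of the 2 WT stages overlapped, replicate 1 of Cnot4-null LZ stood highest of the 8 libraries, and both Cnot4-null PD libraries lay below the other 6. Its log2 change from LZ to PD in WT was 0.05 (95% interval -0.89 to 0.98). Over the other settings it ran from -0.33, under quantile normalization, to 0.93, and no alternative was called (limma adjusted p of at least 0.0708). In Cnot4-null Sycp3 fell by 1.83 on the log2 scale (SE 0.397; limma adjusted p = 0.00882), a 3.56-fold lower level. This call was lost without Cnot4-null LZ replicate 1 (-1.37; adjusted p = 0.0656) and without Cnot4-null PD replicate 2 (-1.40; adjusted p = 0.0522), and with only the Cnot4-null libraries fitted (0.0600), and over all alternatives the limma adjusted p ran from 0.00132 to 0.0656.

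Sycp2 (chr2:178079998-178142390, minus strand, mm9) encodes the partner of SYCP3 in the lateral element. Its level was 119 and 139 FPKM in WT LZ, 198 and 171 FPKM in WT PD, 208 and 143 FPKM in Cnot4-null LZ, and 126 and 96.4 FPKM in Cnot4-null PD. WT PD lay above WT LZ, whereas Cnot4-null PD lay below Cnot4-null LZ. Neither stage difference passed the limma test, with log2 changes of 0.51 in WT (95% interval -0.08 to 1.10; adjusted p = 0.123) and -0.64 in Cnot4-null (95% interval -1.23 to -0.05; adjusted p = 0.0726). With each library rescaled to the same median both passed, at 1.39 (adjusted p = 0.00153) and -1.23 (adjusted p = 0.00433). The change in WT also passed with only the libraries compared (0.0446) and that in Cnot4-null under quantile normalization (-0.79; 0.0102), and over all alternatives the limma adjusted p ran from 0.00153 to 0.997 in WT and from 0.00433 to 0.338 in Cnot4-null. The difference between the genotype effects at PD and LZ, which is also the difference between the stage changes, was -1.15 (SE 0.354; limma adjusted p = 0.0467) for Sycp2 and -1.88 (SE 0.562; limma adjusted p = 0.0429) for Sycp3. Both calls held without Cnot4-null PD replicate 1 and were lost without each other library. For Sycp2 and Sycp3 the limma adjusted p was 0.144 and 0.148 without WT LZ replicate 1, 0.0878 and 0.0795 without WT LZ replicate 2, 0.158 and 0.130 without WT PD replicate 1, and 0.114 and 0.136 without WT PD replicate 2. It was 0.134 for both without Cnot4-null LZ replicate 1, 0.0527 and 0.0501 without Cnot4-null LZ replicate 2, and 0.0998 and 0.117 without Cnot4-null PD replicate 2. The call for Sycp2 was also lost with no filter (0.0595), under quantile normalization (0.0657) and without the trend (0.0642), and that for Sycp3 with no filter (0.0692). Over all alternatives the limma adjusted p ran from 0.00336 to 0.158 for Sycp2 and from 0.00447 to 0.148 for Sycp3.

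Sycp1 (chr3:102622422-102740023, minus strand, mm9) encodes the transverse filament protein. It measured 459 and 450 FPKM in WT LZ, 113 and 112 FPKM in WT PD, 750 and 478 FPKM in Cnot4-null LZ, and 150 and 127 FPKM in Cnot4-null PD. All 4 PD libraries lay far below all 4 LZ libraries, and both Cnot4-null PD values lay above those of WT PD. Sycp1 fell from LZ to PD by 2.01 on the log2 scale in WT (SE 0.244; limma adjusted p = 3.4e-04), or 4.02-fold, and by 2.11 in Cnot4-null (SE 0.244; limma adjusted p = 8.2e-04), or 4.32-fold. The difference between these changes was -0.11, with a 95% interval of -0.92 to 0.71. Its direction turned under quantile normalization (0.27), without Cnot4-null LZ replicate 1 (0.22) and without Cnot4-null PD replicate 2 (0.02). With rescaling it was negative and called (-1.57; limma adjusted p = 0.00813, in a range to 0.980).

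Among the central element genes, Syce2 (chr8:87396010-87412120, plus strand, mm9) had the widest range. It encodes a protein that assembles with TEX12 into the fibres along which the complex extends. Syce2 measured 480 and 528 FPKM in WT LZ and 43.1 and 32.1 FPKM in WT PD. In Cnot4-null it measured 613 and 453 FPKM at LZ and 195 and 136 FPKM at PD. The LZ libraries of the 2 genotypes overlapped, and the Cnot4-null PD libraries lay between them and WT PD, with no overlap on either side. Syce2 fell from LZ to PD by 3.72 on the log2 scale in WT (SE 0.266; limma adjusted p = 4.1e-05), or 13.2-fold, and by 1.69 in Cnot4-null (SE 0.266; limma adjusted p = 0.00254), or 3.22-fold. The difference between these changes was 2.03 (SE 0.377; limma adjusted p = 0.00903). It was 0.57 (adjusted p = 0.232) with each library rescaled to the same median and 1.83 (adjusted p = 0.0519) without WT PD replicate 2, and over all alternatives the limma adjusted p ran from 0.00462 to 0.232.

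Tex12 (chr9:50365253-50369373, minus strand, mm9) encodes the partner of SYCE2. It measured 202 and 351 FPKM in WT LZ, 65.4 and 98.0 FPKM in WT PD, 374 and 247 FPKM in Cnot4-null LZ, and 64.2 and 64.1 FPKM in Cnot4-null PD. The PD libraries lay below the LZ libraries in both genotypes, and WT LZ had the widest spread between duplicates. Tex12 fell from LZ to PD in WT (log2 change -1.72, SE 0.342; limma adjusted p = 0.00367), or 3.30-fold, and by 2.23 in Cnot4-null (SE 0.342; limma adjusted p = 0.00231), or 4.68-fold. The fall in WT was -0.84 after rescaling of the libraries by their medians, with a limma adjusted p of 0.0552, and over all alternatives this p ran from 0.00149 to 0.0552. The difference between the stage changes was -0.50, with a 95% interval of -1.64 to 0.63. It was called with rescaling (-1.97; limma adjusted p = 0.0124, in a range to 0.881).

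Syce1 (chr7:147963128-147973753, minus strand, mm9) encodes a central element protein that binds SYCP1. It measured 147 and 180 FPKM in WT LZ, 604 and 601 FPKM in WT PD, 172 and 135 FPKM in Cnot4-null LZ, and 290 and 144 FPKM in Cnot4-null PD. The 2 WT PD libraries stood well above the other 6, and Cnot4-null PD replicate 2 lay within the range of the LZ libraries while replicate 1 lay above it. Syce1 rose from LZ to PD by 1.88 on the log2 scale in WT (SE 0.33; limma adjusted p = 0.00201), or 3.69-fold. In Cnot4-null the change was 0.42 (95% interval -0.35 to 1.2; limma adjusted p = 0.321). It was -0.17 with each library rescaled to the same median and -0.08 without Cnot4-null PD replicate 1, and it passed the test without Cnot4-null PD replicate 2, at 0.92 (limma adjusted p = 0.0205; the range over all alternatives was 0.0205 to 0.783). The difference between the stage changes, -1.46 (SE 0.467), had a limma adjusted p of 0.0521, in a range from 0.00437 to 0.164 over the alternatives. It passed with a mean FPKM of at least 5 (adjusted p = 0.0487), under quantile normalization (0.0265), with rescaling (0.00437) and without Cnot4-null PD replicate 1 (0.00609).

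The promoters of Syce1, which rose from LZ to PD in WT, and of Syce2, Sycp1 and Tex12, which fell, are shown so that genes moving in opposite directions can be compared. They come from RefSeq on GRCm38.p6, run from 250 bases before to 50 bases after the start site, and are written 5′ to 3′ on the strand of the gene. Capitals mark matches, on either strand, to 5 motifs: E-box CACGTG, STRA8-type CNCCTCAG, E2F-type GCGGGAA, MYB-type AACNGTT and the CRE core TGACG. The windows are chr7:140787805-140788104 for Syce1 (minus strand), chr8:84872008-84872307 for Syce2 (plus strand), chr3:102936051-102936350 for Sycp1 (minus strand) and chr9:50561219-50561518 for Tex12 (minus strand).
Syce1: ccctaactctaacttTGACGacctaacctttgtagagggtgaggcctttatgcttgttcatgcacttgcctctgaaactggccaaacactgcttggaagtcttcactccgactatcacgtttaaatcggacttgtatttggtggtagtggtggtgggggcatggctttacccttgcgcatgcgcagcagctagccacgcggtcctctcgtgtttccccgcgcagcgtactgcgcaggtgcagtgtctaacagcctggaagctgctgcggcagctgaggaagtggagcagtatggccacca
Syce2: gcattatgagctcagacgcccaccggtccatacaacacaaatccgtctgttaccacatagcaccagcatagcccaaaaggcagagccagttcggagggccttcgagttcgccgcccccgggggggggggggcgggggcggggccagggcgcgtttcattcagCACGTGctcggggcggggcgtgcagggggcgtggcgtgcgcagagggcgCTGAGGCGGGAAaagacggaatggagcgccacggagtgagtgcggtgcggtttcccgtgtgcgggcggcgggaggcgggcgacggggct
Sycp1: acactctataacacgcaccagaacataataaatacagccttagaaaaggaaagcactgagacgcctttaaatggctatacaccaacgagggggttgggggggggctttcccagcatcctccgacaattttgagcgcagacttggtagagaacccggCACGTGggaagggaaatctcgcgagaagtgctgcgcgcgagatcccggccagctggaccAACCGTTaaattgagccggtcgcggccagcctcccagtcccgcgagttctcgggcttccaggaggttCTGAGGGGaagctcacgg
Tex12: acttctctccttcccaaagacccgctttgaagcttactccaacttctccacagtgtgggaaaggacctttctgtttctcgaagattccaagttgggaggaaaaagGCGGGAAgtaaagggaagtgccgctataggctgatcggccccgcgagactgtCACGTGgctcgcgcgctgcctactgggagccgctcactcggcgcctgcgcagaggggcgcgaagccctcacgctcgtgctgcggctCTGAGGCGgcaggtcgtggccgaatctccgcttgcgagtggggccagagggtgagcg

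All 6 genes were matched in the RefSeq table, Syce2 with 2 overlapping windows. An E-box was found in 4 of the 6 (Sycp1, Sycp3, Syce2 and Tex12), and 7.15% of the 32851 promoters in the table hold one. Its first base lay at -94 from the start site in Sycp1, -88 in Syce2 and -93 in Tex12, the 3 genes that fell in WT, and Sycp3 had E-boxes at -64 and -43. The STRA8-type motif was found in Sycp1, Syce2 and Tex12 (7.94% of promoters), and the E2F-type motif in Sycp3, Syce2 and Tex12 (4.6% of promoters). In Syce2 these motifs share bases, as CTGAGGCG at -39 and GCGGGAA at -34, and appear as 1 run of capitals. The MYB-type motif was found in Sycp1 (4.45% of promoters). TGACG was found at -235 in Syce1, which had no other match, and in the upstream window of Syce2 (20.8% of promoters), and Sycp2 had no match. These matches describe letters in a window, and no binding was measured.

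As WT cells went from LZ to PD, transcripts of the transverse filament and of both partners SYCE2 and TEX12 became scarcer, while those of Syce1 became more abundant. The lateral element genes were present at both stages and their changes did not pass the test. In WT, 1 of the 6 genes was higher and 3 were lower at PD than at LZ, beside 21.6% of all genes tested called higher and 36.2% called lower by limma. The median log2 change of the 6 was -0.84, against -0.32 over all genes. Relative to that median, Syce2 changed by -3.41, Sycp1 by -1.69, Tex12 by -1.40, Sycp3 by 0.36, Sycp2 by 0.83 and Syce1 by 2.2. Of all genes, 3436 were called higher and 5754 lower. With each library rescaled to the same median, 5174 were higher and 4265 lower, the median of all genes was 0.05 and that of the 6 genes 0.04. With the values as deposited, falls thus outnumbered rises both among the 6 and among all genes.

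In Cnot4-null cells the lateral element gene Sycp3 fell together with Sycp1, Syce2 and Tex12. The rise of Syce1 seen in WT did not pass the test here. In Cnot4-null cells, 0 of the 6 were higher and 4 were lower at PD than at LZ by limma, beside 27.8% and 18.2% of all genes. An unadjusted limma p under 0.05 was found for 5 of the 6 and for 8602 of the 15899 genes tested. The median log2 change of the 6 was -1.76, against 0.19 over all genes. Relative to that median, Tex12 changed by -2.41, Sycp1 by -2.30, Sycp3 by -2.02, Syce2 by -1.87, Sycp2 by -0.82 and Syce1 by 0.24. Tex12, Sycp1, Sycp3 and Syce2 lay between the 1.09 and 3.02 percentile of all log2 changes in this comparison. Of all genes, 4423 were called higher and 2893 lower. The split was 2974 higher and 4986 lower under quantile normalization, and 3326 higher and 5183 lower with rescaling to the same median, where the median of all genes was -0.22 and that of the 6 genes -2.35. The late prophase markers in these PD libraries summed to less than in WT PD and the Leydig and spermatid markers to more, as given above.

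In the LZ fraction, in which the complex is assembled, no difference between the genotypes passed the test. All 6 transcripts were abundant in both genotypes at LZ. At LZ, 0 of the 6 genes were called different between the genotypes in limma, and 0 of the 6 had an unadjusted p under 0.05. Over all genes, 0.0692% were called higher in Cnot4-null and 0.0252% lower (11 and 4 genes), and 1013 had an unadjusted p under 0.05. The largest log2 difference among the 6 was that of Sycp3, 0.70 (95% interval -0.23 to 1.64), which was 0.24 without Cnot4-null LZ replicate 1. Sycp2 differed by 0.42 (-0.17 to 1.01), Sycp1 by 0.40 (-0.18 to 0.97), Tex12 by 0.19 (-0.61 to 0.99), Syce2 by 0.07 (-0.56 to 0.69) and Syce1 by -0.09 (-0.87 to 0.68), with 95% intervals in parentheses. The values of the genotypes overlapped for Tex12, Syce1 and Syce2, and both Cnot4-null values lay above both WT values for Sycp1, Sycp2 and Sycp3. The median of the 6 was 0.29, against 0.00 over all genes. The signs for Syce2, Tex12 and Syce1 turned when single libraries were left out, and that for Syce2 also under quantile normalization (-0.03). An exact permutation test of 2 against 2 libraries cannot give a two-sided p below 0.333, so no such test was run for single genes.

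**Figure D3:**
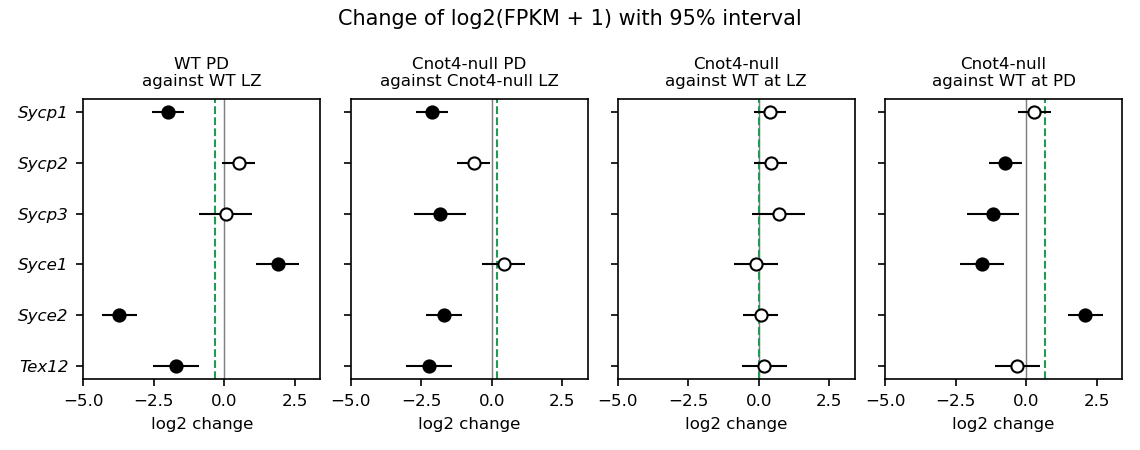
Change of log2(FPKM + 1) of the 6 genes in 4 comparisons, as points with 95% intervals from limma. Filled points have an adjusted p under 0.05, the grey line is at 0 and the dashed line is the median of all genes tested; Syce2 (2.1) lay to the right of that median at PD and the other 5 to its left, and with rescaling to the same median the change of Sycp1 there was negative (-1.14).

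In the PD fraction, which holds the complete complex of pachytene and its loss in diplotene, the genotypes differed in both directions. Within the central element, Syce2 was higher and Syce1 lower in Cnot4-null, and both lateral element genes were lower. At PD, 1 of the 6 genes was higher and 3 were lower in Cnot4-null than in WT by limma, beside 41.6% of all genes called higher and 11.5% called lower. Syce2 was higher by 2.1 on the log2 scale (SE 0.266; limma adjusted p = 9.4e-04), or 4.29-fold. Syce1 was lower, with a log2 difference of -1.55 (SE 0.33; limma adjusted p = 0.00753), or 2.94-fold. Sycp3 (-1.17, SE 0.397; limma adjusted p = 0.0409) and Sycp2 (-0.73, SE 0.25; limma adjusted p = 0.0424) were lower with p-values near the threshold. For all 6 genes, called or not, both Cnot4-null PD values lay on the same side of both WT PD values. Sycp1 differed by 0.29 (95% interval -0.28 to 0.87) and Tex12 by -0.32 (95% interval -1.12 to 0.49), and neither passed.

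The median log2 difference of the 6 genes at PD was -0.52, against 0.66 over all genes, of which 6619 were called higher and 1830 lower. Relative to that median, Syce2 differed by 1.44, Sycp1 by -0.37, Tex12 by -0.98, Sycp2 by -1.39, Sycp3 by -1.84 and Syce1 by -2.22. Scaling moved the whole distribution: 2835 genes were called higher and 4078 lower under quantile normalization (median -0.10), and 3704 higher and 6378 lower with rescaling to the same median (median -0.21). With only the PD libraries fitted, 5186 were higher and 902 lower, and leaving out single libraries also moved both counts. With rescaling Syce2 was still higher but missed the threshold (0.68; adjusted p = 0.0521), and the other 5 were all called lower, Sycp1 (-1.14) and Tex12 (-1.73) included. Under quantile normalization Sycp1 was called higher (0.56; adjusted p = 0.0477) and Sycp2 was not called (-0.40; adjusted p = 0.119). Syce2 had the highest and Syce1 the lowest of the 6 differences under both scalings.

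Single libraries decided some of the calls at PD. Sycp2 and Sycp3 were not called without WT LZ replicate 1 (adjusted p = 0.0687 and 0.0682), WT LZ replicate 2 (both 0.0678), WT PD replicate 1 (0.194 and 0.144), WT PD replicate 2 (0.107 and 0.149) or Cnot4-null PD replicate 2 (0.167 and 0.226). Without that last library Sycp3 differed by -0.74 and Sycp2 by -0.54. Syce1 was not called without WT PD replicate 1 (adjusted p = 0.0502) or WT PD replicate 2 (0.0517), or when the 4 PD libraries were fitted alone (0.0583). In that fit Sycp2 (0.0817) and Sycp3 (0.0954) were not called either. With no filter Sycp2 (0.0521) and Sycp3 (0.0653) were not called, and without the trend Sycp2 was not (0.0601). Syce2 was called without each library in turn, at log2 differences of 1.84 to 2.36. Over all alternatives the limma adjusted p ran from 4.9e-04 to 0.194 for Sycp2, 0.00112 to 0.226 for Sycp3, 5.1e-04 to 0.0583 for Syce1 and 5.1e-04 to 0.0521 for Syce2. The summed Leydig, spermatid, spermatogonial, Sertoli, macrophage and peritubular markers stood higher in these Cnot4-null PD libraries than in WT PD, with 1 spermatogonial marker lower, and their part in the differences was not tested.

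For the lateral element genes and Syce2, a difference between the genotype effects at PD and at LZ passed the test. For Syce1, Sycp1 and Tex12 it did not, with Syce1 near the threshold (-1.46; limma adjusted p = 0.0521). The calls for Sycp2 and Sycp3 were lost without any 1 library other than Cnot4-null PD replicate 1, as given above. The difference between the genotype effects at PD and at LZ was called positive for 1 of the 6 genes (Syce2) and negative for 2 (Sycp2 and Sycp3), beside 26.0% of all genes called positive and 3.97% called negative by limma. The median of the 6 was -0.83, against 0.64 over all genes. Of all genes, 4139 were positive and 631 negative. The split was 1548 and 1966 under quantile normalization and 2167 and 5146 with rescaling to the same median. Leaving out single libraries also moved both counts, the negative count by the larger factor. With rescaling 5 of the 6 were called, all negative, and Syce2 was not.

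The share of each gene in the summed FPKM of the 6 does not move when a library is rescaled as a whole. Syce1 made up 7.15% and 7.04% of the sum in WT LZ and 33.4% and 33.2% in WT PD. In Cnot4-null it made up 4.47% and 5.72% at LZ and 22.3% and 17.5% at PD. Its share was thus higher at PD than at LZ in both genotypes without overlap, and highest in WT PD. Syce2 made up 23.3% and 20.7% in WT LZ and 2.38% and 1.77% in WT PD, but 16.0% and 19.2% in Cnot4-null LZ and 15.0% and 16.4% in Cnot4-null PD, where the stages overlapped. The ratio of Syce2 to Syce1 FPKM was 3.26 and 2.94 in WT LZ, 0.0714 and 0.0534 in WT PD, 3.57 and 3.35 in Cnot4-null LZ, and 0.674 and 0.939 in Cnot4-null PD. On this ratio the Cnot4-null PD libraries lay between the LZ libraries and WT PD without overlap.

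Sycp3 made up 31.6% and 35.5% of the sum in WT LZ, 43.4% and 44.1% in WT PD, 44.9% and 38.4% in Cnot4-null LZ, and 36.4% and 31.4% in Cnot4-null PD. The lateral element gene with the larger share thus gained share from LZ to PD in WT and lost it in Cnot4-null, in both libraries of each group. Sycp1 made up 22.3% and 17.6% in WT LZ, 6.23% and 6.18% in WT PD, 19.5% and 20.2% in Cnot4-null LZ, and 11.6% and 15.3% in Cnot4-null PD. Sycp2 made up 5.42% to 6.05% in the LZ libraries and 9.41% to 11.7% in the PD libraries, and Tex12 made up 9.73% to 13.7% at LZ and 3.62% to 7.75% at PD. For Sycp1, Sycp2 and Tex12 the stages did not overlap in either genotype. The summed FPKM of the 6 was 2057 and 2553 in WT LZ, 1809 and 1813 in WT PD, 3842 and 2363 in Cnot4-null LZ, and 1299 and 827 in Cnot4-null PD, the lowest of the 4 groups. These shares and sums are a description with no test.

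**Figure D4:**
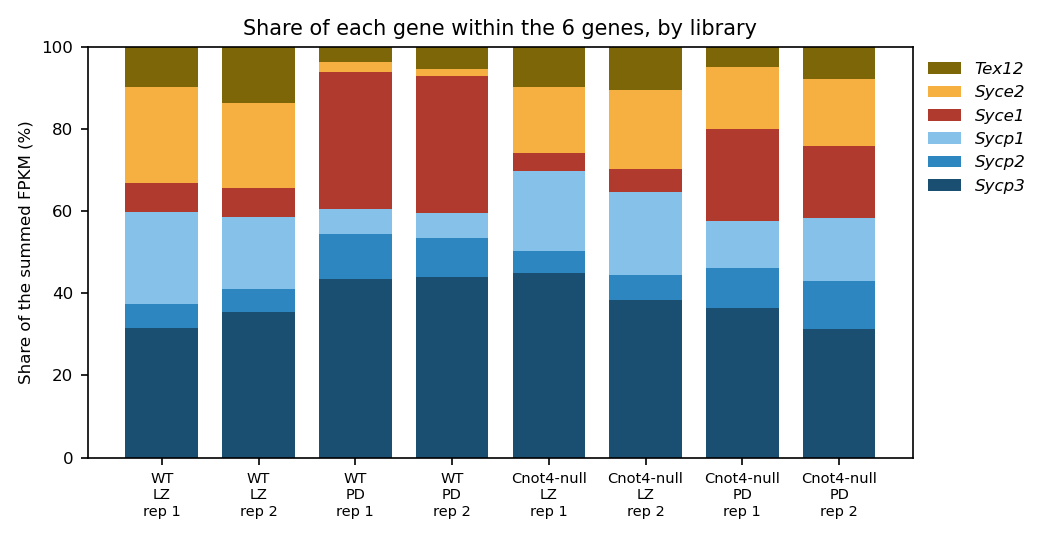
Share (%) of each of the 6 genes in their summed FPKM, as stacked bars for each library. Syce2 took 2.38% and 1.77% in WT PD but 15.0% and 16.4% in Cnot4-null PD, while Syce1 took 33.4% and 33.2% in WT PD.

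The order of the levels per unit length followed these shifts. In WT LZ the mean FPKM ran from Sycp3 (778 ± 181, SD, n = 2) through Syce2 (504 ± 34.1), Sycp1 (454 ± 6.72), Tex12 (276 ± 105) and Syce1 (163 ± 23.2) to Sycp2 (129 ± 14.2). In WT PD it ran from Sycp3 (792 ± 9.95) through Syce1 (603 ± 2.25), Sycp2 (184 ± 19.4), Sycp1 (112 ± 0.349) and Tex12 (81.7 ± 23.0) to Syce2 (37.6 ± 7.80), and in both WT groups no neighbours in the order overlapped. In Cnot4-null LZ the order was Sycp3 (1316 ± 578), Sycp1 (614 ± 192), Syce2 (533 ± 113), Tex12 (310 ± 90.0), Sycp2 (176 ± 46.3) and Syce1 (154 ± 25.8), where Sycp1 overlapped Syce2, and Sycp2 overlapped Syce1. In Cnot4-null PD it was Sycp3 (367 ± 151), Syce1 (217 ± 103), Syce2 (165 ± 42.0), Sycp1 (138 ± 16.5), Sycp2 (111 ± 21.2) and Tex12 (64.1 ± 0.116). There the first 3 each overlapped the next. Every gene of the 6 ranked at or above the 82.7 percentile of the genes tested in every group mean, the lowest being Syce2 in WT PD.

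Other genes of the complex were listed for comparison. Syce3, a further central element gene, measured 442 and 607 FPKM in WT LZ, 336 and 315 in WT PD, 732 and 378 in Cnot4-null LZ, and 521 and 263 in Cnot4-null PD, with the genotypes overlapping at both stages. Its log2 changes were -0.67 in WT and -0.51 in Cnot4-null between the stages, 0.02 between the genotypes at LZ and 0.19 at PD (limma adjusted p = 0.718), none of which passed. Under quantile normalization its change between the WT stages was -1.19 and passed (adjusted p = 0.00639, in a range to 0.695). With rescaling to the same median its change was 0.21 between the WT stages and -1.25 between the genotypes at PD (adjusted p = 0.0287, in a range to 0.859 over the alternatives). 4930447C04Rik, also known as Six6os1, encodes a partner of SYCE1. It measured 109 and 126 FPKM in WT LZ, 12.9 and 12.4 in WT PD, 185 and 155 in Cnot4-null LZ, and 31.6 and 42.9 in Cnot4-null PD. It fell from LZ to PD in WT (-3.12; limma adjusted p = 3.7e-05) and in Cnot4-null (-2.17; limma adjusted p = 5.3e-04). The difference between these changes, 0.95 (limma adjusted p = 0.0524), passed without Cnot4-null PD replicate 1 (1.16; 0.0132) and with a pseudocount of 0.1 (1.01; 0.0424), and was -0.46 with rescaling, in a range of adjusted p from 0.0132 to 0.301. It was higher in Cnot4-null than in WT at PD (1.47; limma adjusted p = 0.00167), and by 0.10 (adjusted p = 0.669) with rescaling, in a range from 0.00138.

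Syce1l, a relative of Syce1, measured 6.55 and 5.32 FPKM in WT LZ, 164 and 148 in WT PD, 3.37 and 4.44 in Cnot4-null LZ, and 99.8 and 31.6 in Cnot4-null PD. It rose from LZ to PD by 4.50 on the log2 scale in WT (limma adjusted p = 1.8e-04) and by 3.55 in Cnot4-null (limma adjusted p = 0.00139). It was lower in Cnot4-null than in WT at PD (-1.45; limma adjusted p = 0.0368), and this call was lost without either WT LZ library, either WT PD library, either Cnot4-null LZ library or Cnot4-null PD replicate 2 (adjusted p = 0.0650 to 0.154), with no filter (0.0570) and with the PD libraries fitted alone (0.131). Both Syce1 and Syce1l were thus highest in WT PD. Sycp2l has no row in the files used here. The pseudogene Sycp1-ps1 measured 1.37 to 3.73 FPKM over the 8 libraries, far below Sycp1.

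The chromosome axis genes, whose products build or act on the scaffold of the lateral elements, were mostly lower at PD than at LZ. Of 9 tested, 0 were higher and 7 lower in WT (median -1.22), beside 36.2% of all genes lower, and 0 were higher and 9 lower in Cnot4-null (median -1.42), beside 18.2%. The WT count was 4 without WT PD replicate 2, and with rescaling 6 were called, 2 of them higher. The Cnot4-null count was 4 without Cnot4-null LZ replicate 1 and 4 with only the Cnot4-null libraries fitted. The cohesin subunit gene Smc3 measured 105 and 93.1 FPKM in WT LZ and 4.71 and 4.06 in WT PD, against 129 and 103 in Cnot4-null LZ and 29.3 and 44.2 in Cnot4-null PD. Trip13, whose product removes HORMA domain proteins from the axes, measured 59.8 and 65.1 FPKM in WT LZ and 5.28 and 5.29 in WT PD, against 49.3 and 56.2 in Cnot4-null LZ and 19.6 and 18.4 in Cnot4-null PD. For both, the Cnot4-null PD libraries lay between WT PD and the LZ libraries, as for Syce2. In WT the log2 falls were -4.21 for Smc3 (limma adjusted p = 2.4e-05) and -3.33 for Trip13 (limma adjusted p = 2e-05). In Cnot4-null the largest falls of the list were those of Rad21l (-2.77; limma adjusted p = 0.00205) and Hormad2 (-1.99; limma adjusted p = 0.0029).

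Between the genotypes 0 of the 9 axis genes were called at LZ in limma (median 0.22), beside 15 of all 15899 genes. At PD the median was -0.04, against 0.66 over all genes. There 3 were higher in Cnot4-null (Smc3, Rec8 and Trip13) and 2 lower (Hormad1 and Stag3), beside 41.6% and 11.5% of all genes. The balance turned with scaling, to 2 higher and 4 lower under quantile normalization and 2 higher and 5 lower with rescaling. The log2 difference was 2.78 for Smc3 (limma adjusted p = 2.7e-04; 1.48 with rescaling) and 2.1 for the meiotic kleisin gene Rec8 (limma adjusted p = 0.00141). Rec8 measured 0.692 and 1.01 FPKM in WT PD against 8.72 and 5.41 in Cnot4-null PD, and under quantile normalization its difference was 0.75 (adjusted p = 0.137, in a range from 8.5e-04 over the alternatives). Hormad1, which encodes an axis protein, measured 192 and 218 FPKM in WT PD against 104 and 57.8 in Cnot4-null PD, a log2 difference of -1.39 (limma adjusted p = 0.0162). Stag3, a meiotic cohesin subunit gene, measured 79.1 and 80.8 FPKM in WT PD against 48.0 and 24.5 in Cnot4-null PD, a difference of -1.19 (limma adjusted p = 0.0135). Without WT PD replicate 1 or 2, Hormad1 (adjusted p = 0.0693 and 0.0946) and Stag3 (adjusted p = 0.0718 and 0.0768) were not called, and Hormad1 was not called without Cnot4-null PD replicate 2 (adjusted p = 0.0996). With the PD libraries fitted alone Hormad1 (0.0502) and Stag3 (0.0729) were not called.

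Of 7 crossover and synapsis genes tested, with no row for Rnf212 and 1 planned gene left out after its values were seen, 1 rose and 3 fell between the WT stages (median -0.84), beside 21.6% and 36.2% of all genes, and 0 were higher and 5 lower in Cnot4-null (median -1.35), beside 27.8% and 18.2%. The Cnot4-null count was 2 without Cnot4-null LZ replicate 1 and 3 with only the Cnot4-null libraries fitted. Tex11, a meiotic crossover gene on the X chromosome, measured 92.4 and 81.0 FPKM in WT LZ and 0.757 and 0.924 in WT PD, against 102 and 80.5 in Cnot4-null LZ and 11.4 and 7.45 in Cnot4-null PD. Fkbp6, whose product is needed for synapsis, measured 382 and 384 FPKM in WT LZ and 33.4 and 28.2 in WT PD, against 294 and 276 in Cnot4-null LZ and 133 and 140 in Cnot4-null PD. Both genes were lowest in WT PD, and the Cnot4-null PD libraries lay between WT PD and all LZ libraries. In WT the log2 change was -5.57 for Tex11 (limma adjusted p = 1.7e-05), -3.60 for Fkbp6 (limma adjusted p = 1.7e-05) and 1.56 for the mismatch repair gene Mlh3 (limma adjusted p = 0.0027). In Cnot4-null Tex11 changed by -3.16 (limma adjusted p = 3.6e-04) and Ccnb1ip1 by -1.95 (limma adjusted p = 0.0298). The size for Ccnb1ip1 rested on 1 library, as it was -0.94 without Cnot4-null PD replicate 2 and -2.96 without replicate 1. Its call was lost without any 1 of the 6 libraries other than Cnot4-null PD (adjusted p = 0.0578 to 0.145) and with only the Cnot4-null libraries fitted (0.117).

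Of these 7 genes, 0 were called different between the genotypes at LZ in limma (median 0.07), beside 15 of all 15899 genes. At PD 2 were higher (Tex11 and Fkbp6) and 1 was lower (Mlh3), beside 41.6% and 11.5% of all genes, with a median of 0.23. The split was 2 higher and 2 lower under quantile normalization and 2 higher and 4 lower with rescaling. Tex11 was higher by 2.48 (limma adjusted p = 4.1e-04) and Fkbp6 by 2.12 (limma adjusted p = 2.3e-04) on the log2 scale. These sizes depend on scaling, with 1.24 for Tex11 under quantile normalization and 1.49 with rescaling, and 0.70 for Fkbp6 with rescaling. Mlh3 differed by -0.83 (limma adjusted p = 0.0457), and was not called without any 1 of the libraries other than Cnot4-null PD replicate 1 (adjusted p = 0.0661 to 0.189), with no filter (0.0622), with a pseudocount of 0.1 (0.0561), with the PD libraries fitted alone (0.113) or with the replicate block (0.0544).

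The telomere attachment genes, whose products tie chromosome ends to the nuclear envelope while homologues pair, were called in both directions between the stages. Of 6 tested, 2 rose and 1 fell between the WT stages (median 0.11), and 1 was higher and 3 lower in Cnot4-null (median -0.84), beside the shares of all genes given above. With rescaling 4 were called in WT, all higher. With only the Cnot4-null libraries fitted 2 were called in Cnot4-null. Spdya, whose product activates CDK2 at telomeres, measured 51.4 and 74.0 FPKM in WT LZ and 291 and 302 in WT PD, against 67.7 and 40.4 in Cnot4-null LZ and 98.7 and 54.8 in Cnot4-null PD. Its WT PD values stood apart from the other 6 libraries, as for Syce1. In WT Spdya rose by 2.24 (limma adjusted p = 0.00129) and Ccdc155, which encodes KASH5, by 1.03 (limma adjusted p = 0.00541), while Sun1 changed by -1.08 (limma adjusted p = 0.00553), a fall not called with rescaling to the same median (-0.22; adjusted p = 0.409, in a range from 0.00432). The rise of Ccdc155 was not called without WT PD replicate 1 (adjusted p = 0.0555). In Cnot4-null Ccdc155 rose by 1.39 (limma adjusted p = 0.00269), and Terb2 (-2.03; limma adjusted p = 0.00299) and Sun1 (-1.08; limma adjusted p = 0.00848) fell, the last not called with only the Cnot4-null libraries fitted (0.0586).

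Between the genotypes 0 of the 6 telomere attachment genes were called at LZ in limma (median -0.01), beside 15 of all 15899 genes. At PD, with a median of -0.99, 0 were higher and 4 lower (Spdya, Ccdc79, Terb2 and Majin), beside 41.6% and 11.5% of all genes. The count was 1 without WT PD replicate 1, 1 without WT PD replicate 2, 2 without Cnot4-null PD replicate 2, 1 with the PD libraries fitted alone and 6 with rescaling, all lower. Spdya was lower, with a log2 difference of -1.99 (limma adjusted p = 0.0039). Ccdc79, which encodes TERB1, measured 36.2 and 33.1 FPKM in WT PD against 20 and 8.81 in Cnot4-null PD, a difference of -1.31 (limma adjusted p = 0.0458). This call was lost without any 1 of the libraries other than Cnot4-null PD replicate 1 (adjusted p = 0.0575 to 0.267), with no filter (0.0688), without the trend (0.0522), with the PD libraries fitted alone (0.0794) and with the replicate block (0.0517). For no list were genes called different between the genotypes at LZ by limma, beside 0.0692% of all genes called higher and 0.0252% called lower. With so few calls over all genes, these counts of 0 do not set the lists apart.

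**Figure D5:**
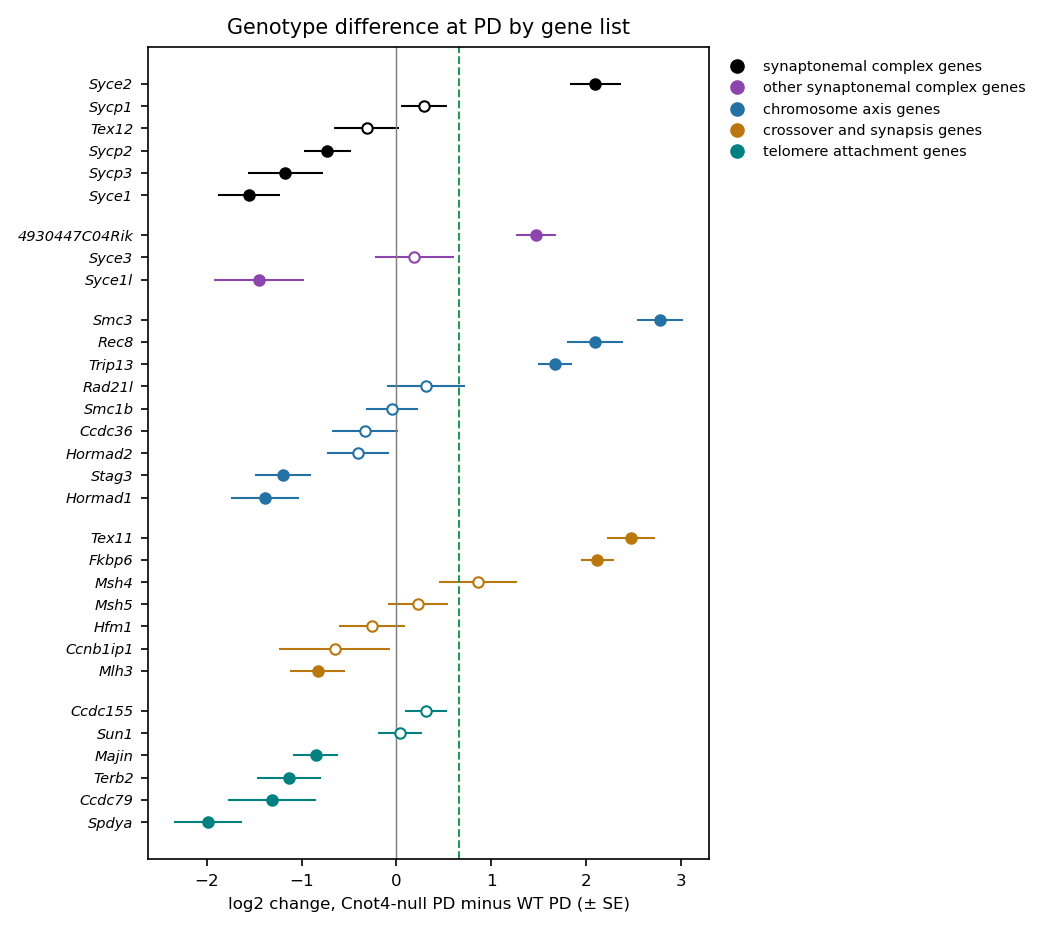
Log2 difference between Cnot4-null PD and WT PD for the 6 genes and 4 lists of related meiotic genes, as points with SE; filled points have a limma adjusted p under 0.05, the grey line is at 0 and the dashed line is the median of all genes (0.66). Called values ran from Smc3 (2.78) to Spdya (-1.99), and with rescaling to the same median Sycp1 (-1.14) and Syce3 (-1.25) were negative.

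Over the 8 libraries the profiles of the 6 genes ran from alike to opposite. On log2(FPKM + 1), Pearson's r was 0.945 for Sycp1 with Tex12, 0.909 for Sycp1 with Syce2, 0.835 for Sycp2 with Sycp3, and -0.872 for Syce1 with Syce2. The libraries share their stage and genotype, so these values describe 4 groups of duplicates. Among 9342 genes with a mean FPKM of at least 5, those most like the mean standardised profile of the 6 were Lnp (r = 0.982), Med31 (0.978), Fbxo7 (0.978), Sub1 (0.977) and Ndufab1 (0.976). Taken singly, the gene most like Sycp1 was Col4a3bp (r = 0.997), most like Sycp2 R3hdm1 (0.943), most like Sycp3 Clcc1 (0.97), most like Syce1 Mff (0.996), most like Syce2 Fkbp3 (0.998) and most like Tex12 Ddx17 (0.992). Fkbp3, for example, measured 374 and 448 FPKM in WT LZ, 51.8 and 44.0 in WT PD, 533 and 427 in Cnot4-null LZ, and 203 and 152 in Cnot4-null PD.

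The gene models of the 6 on mm9 (GENCODE) differ in length. The 3′UTR of the longest coding transcript was 326 nt in Sycp1, 1040 nt in Sycp2, 277 nt in Sycp3, 432 nt in Syce1, 1042 nt in Syce2 and 199 nt in Tex12, against a median of 928 nt over the 14140 genes tested that had one. The coding sequence was 2982 nt in Sycp1, 4503 nt in Sycp2, 765 nt in Sycp3, 990 nt in Syce1, 516 nt in Syce2 and 372 nt in Tex12, against a median of 1260 nt over 14400 genes. Sycp2 and Syce2 have the longest 3′UTRs of the 6. In Cnot4-null PD, Syce2 was called higher and Sycp2 lower than in WT PD. The call for Sycp2 was lost under several alternatives, as given above. Any part of 3′UTR length in these differences was not tested.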

How the data were processed

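RNA-seq of sorted WT and Cnot4-null spermatocytes at LZ and PD was analysed from deposited FPKM values, 1 per gene symbol and library. Per their methods and processing notes, the authors mapped trimmed reads to mm9 with TopHat2 2.1.1, kept those mapped uniquely and computed FPKM with Cufflinks 2.2.1. Their supplement calls the values normalized, but no step that scales libraries to each other is described, and rescaling changes several calls. The sample labels describe another library preparation (TruSeq from total RNA) than the methods (Smart-Seq2).

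Groups came from the sample labels. The filter kept genes whose FPKM was above 1 in any library. A model of 4 group means was fitted to log2(FPKM + 1) of all 8 libraries with limma 3.58.1 (R 4.3.3; eBayes with trend), with 5 two-sided contrasts and Benjamini-Hochberg adjustment over all genes tested, and called at an adjusted p of 0.05. With a pseudocount of 1 a fold understates the change of low genes. P-values measure the spread between libraries, and the files hold no counts. Relative depth was estimated from the steps between low values, which need not follow the read totals. The procedure was tested on simulated data, and no outcome of that test is given or used here. Tables, sequences and figures were made in Python 3.11.15 (pandas 2.3.3, matplotlib 3.10.9, scipy 1.17.1, numpy 2.4.6).

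The 6 genes and all lists were chosen with earlier results of these data known. Beside the 6 genes, the text names every gene of the list of other synaptonemal complex genes, the 2 called genes with the largest rise and the 2 with the largest fall of each other list and comparison, and the genes most alike in profile (5 to the mean, 1 to each gene). The crossover list was recomputed without 1 gene of the planned list after its values were seen, for a reason that was not its values, and its counts and medians changed. Majin, Terb2 and Trip13 at PD were named after their values were seen, to complete small counts. Older symbols were matched through RefSeq (Terb2 as 4933406J08Rik, Majin as 1700123I01Rik). The alternatives were no filter (genes at 0 in all libraries left out), a mean FPKM of at least 5, no trend, quantile normalization, a pseudocount of 0.1, libraries rescaled by their medians, only the libraries compared, a replicate block, and each library left out in turn, where a lone library is assumed to vary like the other groups.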

Additional observations from a re-analysis of the deposited data

Results flagged for a closer look

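A limma test of whether the genotypes differ otherwise at PD than at LZ passed for 3 of the 6 synaptonemal complex genes. The difference was positive for 1 and negative for 2, beside 26.0% and 3.97% of all genes. On the log2 scale the difference was 2.03 for Syce2 (limma adjusted p = 0.00903), -1.15 for Sycp2 (0.0467) and -1.88 for Sycp3 (0.0429). The calls for Sycp2 and Sycp3 were lost without any library other than Cnot4-null PD replicate 1, at limma adjusted p-values of 0.0501 to 0.158, and with no filter (0.0595 and 0.0692). That for Sycp2 was also lost under quantile normalization (0.0657) and without the trend (0.0642). The call for Syce2 was lost without WT PD replicate 2 (0.0519) and with rescaling to the same median (0.232).

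Of 25 related meiotic genes tested, the same test was passed by 5 with a positive and 2 with a negative difference, beside 26.0% and 3.97% of all genes. The balance of directions turned with scaling, to 3 positive and 5 negative under quantile normalization and 3 positive and 15 negative with rescaling, and to 6 positive and 8 negative without Cnot4-null PD replicate 1. The difference was positive for Smc3 (2.56; limma adjusted p = 0.00321), Fkbp6 (2.54; 0.00147), Tex11 (2.41; 0.00424), Trip13 (1.91; 0.00311) and Rec8 (1.64; 0.026), and negative for Hormad1 (-1.89; 0.0315) and Spdya (-1.76; 0.0388). In each of the first 5 genes the Cnot4-null PD values lay between WT PD and the LZ libraries, as they did for Syce2. The difference was not called for Tex11 under quantile normalization (1.21; adjusted p = 0.0675) or for Trip13 with rescaling (0.57; adjusted p = 0.128). The difference for Rec8 was not called under quantile normalization (0.27; adjusted p = 0.734), with rescaling (0.64; 0.265) or without any 1 of the WT or Cnot4-null LZ libraries (0.0515 to 0.111). The difference for Hormad1 kept its call in 9 of 15 alternatives and that for Spdya in 7. All losses came with 1 library left out, apart from that of Spdya with no filter (0.0579). With 1 library left out the differences ran from -2.31 to -1.47 for Hormad1 and from -2.18 to -1.34 for Spdya. Markers of other cell types stood high in the Cnot4-null PD libraries that enter each of these values, and their part was not tested.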

How the results depend on the processing

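Of 474 values of the 6 genes under the alternatives, 402 kept their direction and their side of the threshold, 44 kept the direction and were no longer called, 13 became called and 15 changed sign. Of 725 values of the list genes, these numbers were 635, 74, 5 and 11. The sign changes concerned values that were not called with the main settings, and the cause was not tested. Of them, Sycp1 and Syce3 at PD were called, as lower, with rescaling. Under quantile normalization they were Sycp3 in WT between the stages (-0.33), Syce2 (-0.0297) and Syce3 (-0.0435) between the genotypes at LZ, and the difference between the genotype effects for Sycp1 (0.27). With rescaling to the same median they were Syce3 in WT between the stages (0.21), Syce1 in Cnot4-null between the stages (-0.17), Sycp1 (-1.14) and Syce3 (-1.25) at PD, and the difference between the genotype effects for Syce3 (-1.31) and 4930447C04Rik (-0.46).

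With 1 library left out, sign changes gave -0.19 for Sycp3 between the WT stages (leave-one-out range -0.19 to 0.28) and -0.0762 for Syce1 between the Cnot4-null stages (-0.0762 to 0.92). Between the genotypes at LZ they gave -0.15 to 0.28 for Syce2, with -0.00244 without WT LZ replicate 1, -0.21 to 0.59 for Tex12 (-0.11 without Cnot4-null LZ replicate 1), -0.26 to 0.0789 for Syce1 (0.05 without WT LZ replicate 2) and -0.46 to 0.50 for Syce3 (-0.21 without WT LZ replicate 1). At PD they gave -0.31 for Syce3 (-0.31 to 0.68). For the difference between the genotype effects they gave -0.43 to 0.22 for Sycp1 (0.02 without Cnot4-null PD replicate 2), and for Syce3 -0.33, -0.31 and -0.0615 (-0.33 to 0.66).

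With only the libraries compared, 3955 genes were called between the Cnot4-null stages, 4 between the genotypes at LZ, and 1 of the 6 genes at PD. With a mean FPKM of at least 5, 5219 genes were called at PD. With no filter, 2 of the 6 were called at PD and 1 for the difference between the genotype effects. With rescaling, 7313 genes and 5 of the 6 were called for that difference. With each library left out in turn, the count of genes was 4644 to 8333 between the Cnot4-null stages, 9 to 25 at LZ, 4057 to 9956 at PD and 1656 to 7929 for the difference between the genotype effects, and the count among the 6 was 1 to 4 at PD and 0 to 4 for that difference.

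The replicate numbers share no stated animal or batch. Deviations of same-numbered libraries had correlations of -0.0651 to 0.194 between groups. With a replicate block, 9085, 7128, 16, 8298 and 4355 genes were called in the 5 comparisons, and the numbers among the 6 were 4, 4, 0, 4 and 3. Mlh3 (adjusted p = 0.0544) and Ccdc79 (0.0517) at PD were not called with the block. With 2 libraries per group and no counts, small differences at LZ cannot be resolved, and no counting error is given.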
